A study of Rattus norvegicus with 9 samples.

Results

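The RAS, RAF, MEK and ERK genes are the core of the mitogen-activated protein kinase cascade that the series places downstream of thrombin. They were followed here as 7 genes, the RAS GTPase genes Hras and Nras, the RAF kinase genes Araf and Braf, the MEK genes Map2k1 and Map2k2 and the ERK1 gene Mapk3, matched by symbol in a table of 18924 genes. All 7 passed the filter on low counts, which left 13856 genes. The cells were primary chondrocytes of Sprague-Dawley rats at passage 1 or 2, grown in medium with serum and then treated for 24 h with rat plasma only (RP, n = 3), rat plasma plus thrombin (RPT, n = 3) or both of these with an inhibitor whose identity the labels do not give (RPTi, n = 3). All groups thus shared rat plasma, and by the labels RPTi differed from RPT only in the inhibitor. No group had plasma and inhibitor without thrombin. A reversal of the thrombin response therefore cannot be told apart from an effect of the inhibitor itself. The labels do not tell whether replicates are separate animals or cultures, and the p-values below therefore reflect the spread among these libraries alone, part or all of which could be technical.

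RAS proteins are membrane-anchored switches that become active when an exchange factor loads them with GTP. Active RAS recruits RAF kinases, RAF phosphorylates MEK, and MEK phosphorylates ERK, which then acts on other kinases and on transcription factors. In chondrocytes the pathway responds to growth factors, to G-protein-coupled receptors such as the thrombin receptors, and to matrix fragments. Signal through the cascade is carried by GTP loading and phosphorylation, neither of which is read by RNA sequencing. The values below are transcript levels only.

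The 9 libraries held 31877265 to 43962783 counts each, so that each count was worth 0.0227 to 0.0314 CPM (counts scaled to library size). Libraries of a group differed from each other by more than sampling noise. Their log2 CPM correlated at 0.988 to 0.991 across genes. The 12 chondrocyte markers all had counts in every library, led by the cartilage collagen gene Col2a1. Their summed level in CPM was 53121 to 53600 (RP), 33570 to 35721 (RPT) and 78515 to 85529 (RPTi). Of 7 macrophage markers 6 were in the table. Their sum was 24.0 to 27.6 CPM (RP), 45.1 to 47.1 CPM (RPT) and 23.7 to 27.9 CPM (RPTi). Most of it was Cd14, at a mean of 28.7 CPM over the 9 libraries, and only 3 of the 6 had counts in every library. The 6 endothelial markers in the table had sums of 3.43 to 4.37 CPM (RP), 7.03 to 7.21 CPM (RPT) and 2.44 to 2.80 CPM (RPTi). The 8 fibroblast markers had sums of 16081 to 17128 CPM (RP), 9941 to 10616 CPM (RPT) and 15700 to 17194 CPM (RPTi). The 9 muscle and fat markers summed to 31.7 to 45.0 CPM over all libraries, and the 2 blood cell markers in the table to at most 0.268 CPM. No listed marker in the table was at 0 in all 9 libraries. The part of these other cells in the results below was not tested, and in bulk RNA fewer cells of a type and less RNA per cell cannot be told apart.

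Of the 7 genes, 4 passed the test when the inhibitor was added to thrombin, beside 41.5% of all tested genes. Their promoter stretches are shown here because Map2k1 and Nras fell and Araf and Braf rose in that comparison, although the Braf call held under only 7 of 18 alternatives. Each is the 250 bases before the annotated gene start in RefSeq on build GRCr8, which is not the build of the counts, read 5′ to 3′ on the gene's strand. Of the 7 genes, 6 matched an entry. Capitals mark GC boxes (GGGCGG) in Map2k1, and an ETS core (CCGGAAGT) and an E-box (CACGTG) in Nras. They also mark CCAAT boxes and the short ETS motif (CCGGAA) in Araf, and cAMP response elements (TGACGTCA) in Braf. All were searched on both strands, and the GC boxes of Nras and Braf are left in lower case.

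Map2k1, chr8:73650185-73650434, minus strand: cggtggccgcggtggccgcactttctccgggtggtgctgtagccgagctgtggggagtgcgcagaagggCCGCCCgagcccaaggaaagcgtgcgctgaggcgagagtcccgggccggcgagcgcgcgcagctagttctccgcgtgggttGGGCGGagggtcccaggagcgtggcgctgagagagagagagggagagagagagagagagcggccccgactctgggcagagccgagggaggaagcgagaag
Nras, chr2:193271220-193271469, plus strand: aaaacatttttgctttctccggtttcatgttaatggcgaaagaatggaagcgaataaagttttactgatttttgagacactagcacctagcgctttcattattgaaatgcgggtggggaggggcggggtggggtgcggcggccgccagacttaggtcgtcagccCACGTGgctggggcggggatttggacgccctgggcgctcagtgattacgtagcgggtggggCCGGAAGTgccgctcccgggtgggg
Araf, chrX:3792612-3792861, minus strand: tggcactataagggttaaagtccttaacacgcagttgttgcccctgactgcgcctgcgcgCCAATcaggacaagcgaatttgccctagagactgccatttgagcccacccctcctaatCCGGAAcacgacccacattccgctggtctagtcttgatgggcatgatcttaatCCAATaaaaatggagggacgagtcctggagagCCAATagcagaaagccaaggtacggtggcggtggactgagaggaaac
Braf, chr4:69476932-69477181, minus strand: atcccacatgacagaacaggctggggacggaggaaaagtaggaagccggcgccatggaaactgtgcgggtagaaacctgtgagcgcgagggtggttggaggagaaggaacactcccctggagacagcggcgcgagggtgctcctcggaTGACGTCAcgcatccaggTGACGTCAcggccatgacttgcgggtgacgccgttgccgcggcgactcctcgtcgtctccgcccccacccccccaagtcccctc

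Map2k1, Nras and Map2k2 each held 2 GC boxes, Hras held 4 and Braf 1. Araf and Braf shared none of the motifs searched. The ETS core of Nras, 25 bases before the start, was found in 3.1% of 33469 promoters of the same length, and no other member held it. The short ETS motif, which lies within that core, was found in 12.6% of promoters and in Nras and Araf. Braf held 2 cAMP response elements, 102 and 84 bases before its start, a motif found in 1.59% of promoters and in no other member. Araf held 3 CCAAT boxes (34% of promoters hold at least 1) and was alone among the 6 in having no GC box (30.5% of promoters). An AP-1 motif (TGANTCA, 6.34% of promoters) was in none of the 6 stretches. Base composition also differed, from 52.8% G and C in Araf and 57.2% in Nras to 70.4% in Map2k1 and 71.6% in Map2k2, with a median of 51.2% over all promoters.

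Per length, the ERK gene was the most abundant and Braf the least. Levels between genes are compared as FPKM, counts scaled to gene length and to the library total. Over the 9 libraries Mapk3 had a mean of 99.8 ± 7.80 FPKM (SD, n = 9), Map2k2 56.7 ± 6.65, Nras 51.0 ± 6.16, Map2k1 35.2 ± 5.14, Hras 34.4 ± 3.78, Araf 30.5 ± 2.77 and Braf 5.99 ± 0.592. These SDs include the differences between groups. Mapk3 was above Map2k2 in 9 of 9 libraries, by a ratio of 1.48 to 2.08, and Araf above Braf in 9 of 9, by 4.52 to 6.02, in both cases with no overlap of the ranges. Nras was above Map2k1 in 9 of 9 libraries, but their ranges over libraries overlapped. The remaining neighbours did not keep an order: Map2k2 was above Nras in 5 of 9 libraries, Map2k1 above Hras in 6 of 9 and Hras above Araf in 7 of 9. Mapk3 lay above 94.5% of the tested genes in mean FPKM, and Braf above 45.2%.

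**Figure D1:**
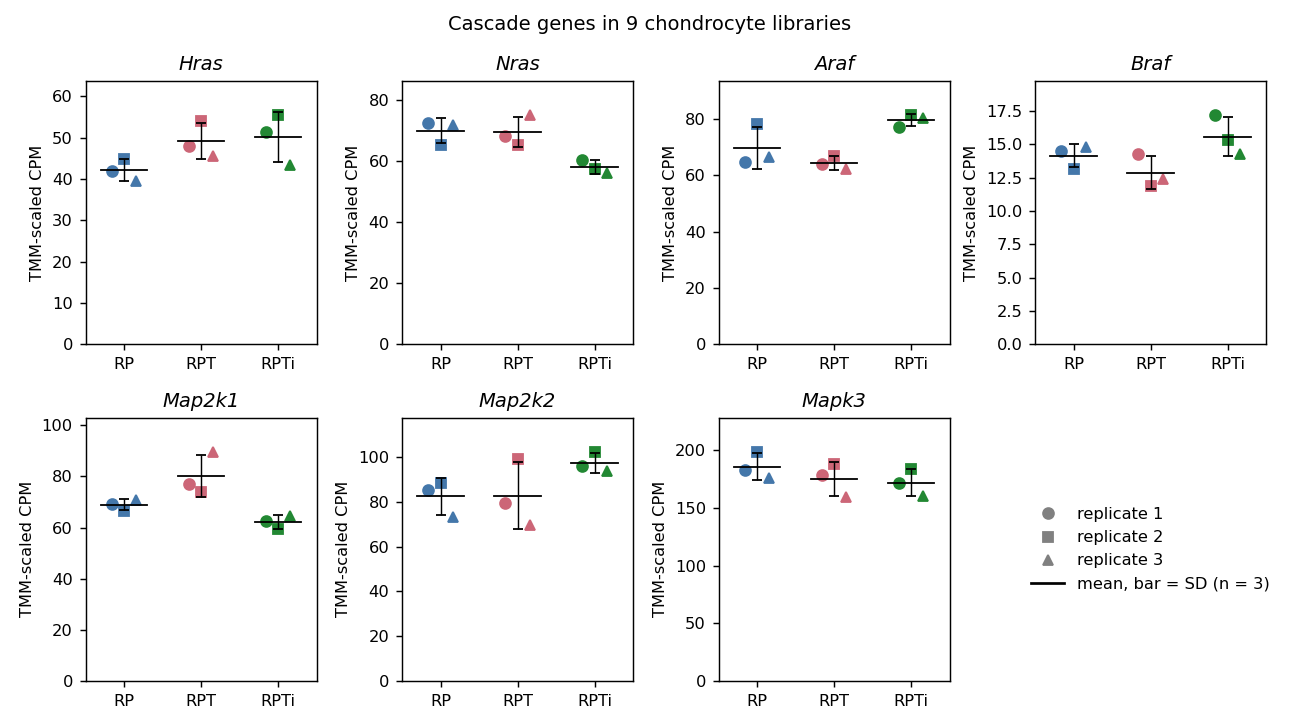
Level of each cascade gene in TMM-scaled CPM (vertical axes, from 0) in the 3 groups (horizontal axes); symbols are libraries, black lines the group means and bars the SD (n = 3). Nras and Map2k1 are lowest in RPTi, at 56.3 to 60.6 and 59.4 to 64.6 CPM, while all 3 RPTi values of Araf, 77.3 to 81.3 CPM, lie above its RPT values.

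With thrombin in plasma, none of the 7 transcripts passed the test across all genes. In RPT against RP 0 of 7 passed (edgeR quasi-likelihood test, adjusted p below 0.05), where 28.9% of all tested genes were called (13.6% rose and 15.2% fell). At an unadjusted p below 0.05 there were 2 of 7, Map2k1 and Hras, beside 39.3% of all tested genes, and DESeq2 called 1, Map2k1. With the replicate number as a block in the fit, Map2k1 and Hras were called, and 5074 genes in all. The median size of the change, without sign, was 0.12 on the log2 scale over the 7 genes and 0.21 over all genes.

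Map2k1, which encodes the kinase MEK1, stood at 69.3, 66.5 and 70.8 CPM in the RP libraries and at 76.9, 73.9 and 89.6 CPM in the RPT libraries. Every RPT library was above every RP library, although the spread within RPT was wide (80.1 ± 8.32 against 68.9 ± 2.18 CPM, SD, n = 3). The fitted difference was 16.3% (log2 fold change 0.22, 95% interval 0.05 to 0.38, edgeR adjusted p = 0.05002), just outside the threshold. It passed under 8 of 18 alternatives, among them a replicate block (adjusted p = 0.00899), DESeq2 size factors (0.0425), library totals alone (0.0360) and the fit without RPT replicate 2 (0.0231). That was the only 1 of 9 fits with a library left out that passed. Without RPT replicate 3, the highest library, the log2 fold change was 0.13 (edgeR adjusted p = 0.143). The adjusted p was 0.115 without RP replicate 1 and 0.140 without RP replicate 2 (edgeR). Hras, the other gene with separate groups, had 41.8, 44.9 and 39.6 CPM in RP and 48.0, 54.0 and 45.5 CPM in RPT. Its log2 fold change was 0.22 (95% interval 0.01 to 0.43, edgeR adjusted p = 0.104, and 0.00934 with a replicate block). Thus 2 of 7 genes had no overlap between the groups, against 40.4% of all tested genes.

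The other 5 genes overlapped between RP and RPT. Nras had 72.7, 65.3 and 72.0 CPM in RP and 68.4, 65.5 and 75.1 CPM in RPT, with an interval of the log2 fold change from -0.16 to 0.15. For Map2k2, which encodes MEK2, the interval was -0.24 to 0.25 around a value of 0.0046. Mapk3 had 183, 198 and 176 CPM in RP and 179, 188 and 159 CPM in RPT (interval -0.25 to 0.08). The RAF genes were at -0.12 for Araf (interval -0.28 to 0.05) and -0.14 for Braf (interval -0.36 to 0.08). A change of 1.5-fold was outside the interval of each of these 5 genes.

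With the inhibitor, the MEK1 and Nras transcripts fell and Araf rose, while the rise of Braf passed under only 7 of 18 alternatives. Between RPT and RPTi 2 of 7 genes rose and 2 fell, together 4 of 7, beside 41.5% of all tested genes (20.4% rose and 21.1% fell). The same 4 genes were those with no overlap between the groups, which held for 50.8% of all genes. The median size of the change was 0.26 over the 7 genes and 0.27 over all genes. This comparison and the one above share the RPT libraries, so their values are not independent.

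Map2k1 fell from 76.9, 73.9 and 89.6 CPM in RPT to 62.7, 59.4 and 64.6 CPM in RPTi. The fall was 1.29-fold (log2 fold change -0.36, SE 0.08, 95% interval -0.53 to -0.20, edgeR adjusted p = 0.00217), and it passed under all 18 alternatives, with values from -0.43 to -0.28. Nras, which encodes a RAS GTPase, went from 68.4, 65.5 and 75.1 CPM to 60.6, 57.5 and 56.3 CPM. Its fall was 1.20-fold (log2 fold change -0.26, SE 0.07, 95% interval -0.42 to -0.10, edgeR adjusted p = 0.0114) and also passed under all 18 alternatives, with adjusted p between 0.00247 and 0.0478.

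Araf, a RAF kinase gene, moved the other way. It had 63.9, 66.9 and 62.2 CPM in RPT and 77.3, 81.3 and 80.5 CPM in RPTi, a rise of 1.24-fold (log2 fold change 0.31, SE 0.08, 95% interval 0.14 to 0.48, edgeR adjusted p = 0.00596) that passed under all 18 alternatives. Braf rose from 14.2, 11.9 and 12.4 CPM to 17.2, 15.3 and 14.3 CPM, where the lowest RPTi value, 14.27, and the highest RPT value, 14.25, almost met. Its log2 fold change was 0.28 (SE 0.10, 95% interval 0.06 to 0.49, edgeR adjusted p = 0.0423). The Braf call passed under only 7 of 18 alternatives. It was lost with DESeq2 (adjusted p = 0.0513), without a filter (0.0542), with only the 2 groups in the fit (0.0525), with library totals alone (0.128), on log2(FPKM + 1) (0.146) and on log2(FPKM + 0.1) (0.140), and without RP replicate 1 (0.0597), RPT replicate 2 (0.127), RPT replicate 3 (0.0986), RPTi replicate 1 (0.185) or RPTi replicate 2 (0.0769).

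Hras, Map2k2 and Mapk3 did not pass between RPT and RPTi. Map2k2 stood at 79.5, 99.0 and 69.5 CPM in RPT and at 96.2, 102 and 93.8 CPM in RPTi, so that a single RPT library, replicate 2, reached into the RPTi range. Its log2 fold change was 0.24 (95% interval -0.0059 to 0.48, edgeR adjusted p = 0.1101). Without RPT replicate 2 it was 0.39 and passed (adjusted p = 0.00568), and it also passed with a replicate block (0.0109). Mapk3 was at 175 ± 14.7 CPM in RPT and 172 ± 11.7 CPM in RPTi (interval -0.19 to 0.14), and Hras at 49.2 ± 4.36 and 50.1 ± 6.07 CPM (interval -0.18 to 0.23).

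**Figure D2:**
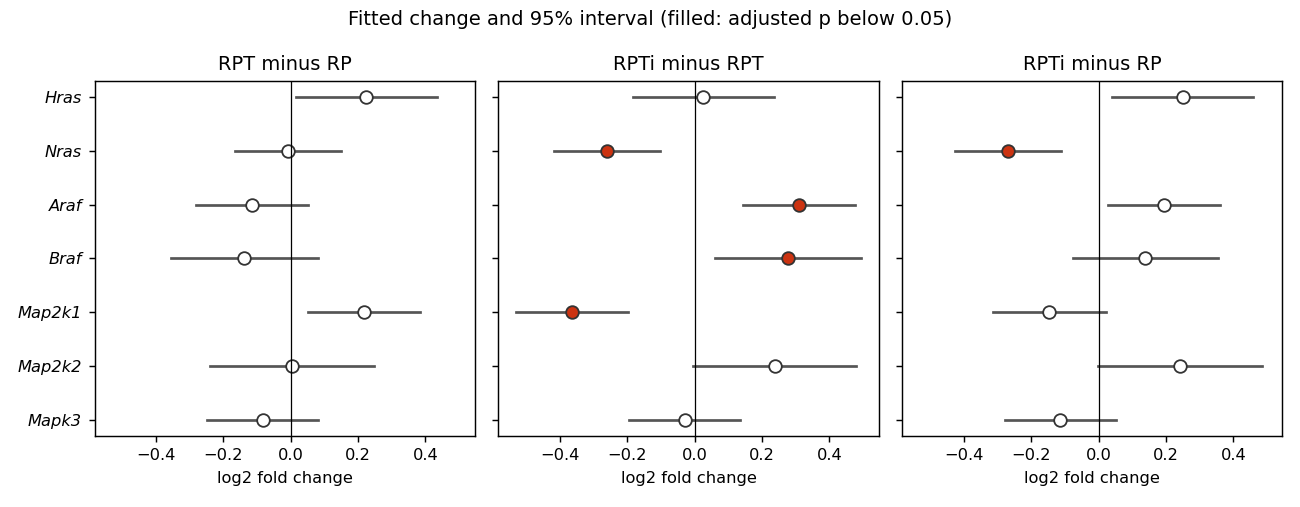
Fitted log2 fold change of each cascade gene (points) with its 95% interval (lines) in the 3 comparisons; filled points have an adjusted p below 0.05. No point is filled for RPT minus RP, 4 are for RPTi minus RPT and only Nras is for RPTi minus RP.

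Against plasma alone, Nras was the 1 member that passed the main edgeR test in cells given thrombin and inhibitor together. In RPTi against RP 1 of 7 genes fell and 0 rose, beside 24.2% of all tested genes (11.9% rose and 12.3% fell). With a replicate block 5 of 7 were called, and 4689 genes in all, as given in the last section. Nras went from 72.7, 65.3 and 72.0 CPM in RP to 60.6, 57.5 and 56.3 CPM in RPTi, with no overlap (log2 fold change -0.27, SE 0.07, edgeR adjusted p = 0.0167). The call was lost without RP replicate 1 (adjusted p = 0.0772), RP replicate 3 (0.0548), RPTi replicate 2 (0.0556) or RPTi replicate 3 (0.0632). Map2k1 and Map2k2 also had no overlap between these groups, making 3 of 7 beside 43.9% of all genes, but neither passed. Map2k1 was at -0.15 (95% interval -0.31 to 0.02, adjusted p = 0.191) and Map2k2 at 0.24 (-0.00096 to 0.48, adjusted p = 0.137, and 0.0332 with only the 2 groups in the fit, and 0.0477 without RPT replicate 2). Hras was at 0.25 (interval 0.04 to 0.46, adjusted p = 0.0796, and 0.0266 without RPTi replicate 3) and Araf at 0.19 (interval 0.03 to 0.36, adjusted p = 0.0847, and 0.0144 without RP replicate 2). Braf (-0.08 to 0.36) and Mapk3 (-0.28 to 0.05) had intervals that contained 0.

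A test over the 3 groups at once called 3 of 7 genes, Map2k1 (adjusted p = 0.00563), Nras (0.0126) and Araf (0.0143), where 46.7% of all genes were called. Without RPTi replicate 2 only Map2k1 remained, with Nras at 0.0516 and Araf at 0.0550, and without RPTi replicate 3 Nras was at 0.0621 and Araf at 0.0514. Other members passed when a library was left out, Hras without RPTi replicate 3 (adjusted p = 0.0288) and Map2k2 without RPT replicate 2 (0.0112). A replicate block added Hras (0.00561), Braf (0.0387) and Map2k2 (0.0122).

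Within groups, several of the genes kept the same order of replicates. Hras, Map2k2 and Mapk3 were each highest in replicate 2 and lowest in replicate 3 in 3 of 3 groups, Araf was highest in replicate 2 in 3 of 3 groups, and Map2k1 was highest in replicate 3 and lowest in replicate 2 in 3 of 3 groups. Nras and Braf were lowest in replicate 2 in 2 of 3 groups. The labels give no batch, and the cause of this order was not tested. How many of all tested genes keep such an order was not counted, so it is not taken as particular to these genes. Correlations of same-numbered libraries over all genes, and a fit with a replicate block, are given in the last section.

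The genes of a tier were also set against each other within each library, which needs no scaling between libraries. Map2k1 per length was 0.62, 0.58 and 0.74 times Map2k2 in the RP libraries, 0.74, 0.57 and 0.99 times in RPT and 0.50, 0.45 and 0.53 times in RPTi. MEK1 transcripts per length were thus below MEK2 in all 9 libraries, though nearly level in RPT replicate 3. They were lowest relative to MEK2 in RPTi, below every RP and RPT library. The order of the 2 genes depends on the gene lengths used, as RPT replicate 3 had 2937 counts of Map2k1 and 2280 of Map2k2. The log2 ratio was -0.63 ± 0.19 in RP, -0.41 ± 0.39 in RPT and -1.03 ± 0.12 in RPTi (SD, n = 3). Over the 3 groups the difference did not pass (exact permutation test over 1680 assignments, p = 0.0571, adjusted over 3 ratios 0.107). Without RPT replicate 2 the exact permutation test gave an adjusted p of 0.0429. With any other library left out it gave 0.145 to 0.300, and permuting within replicate numbers gave 0.0833.

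Hras was 0.54, 0.65 and 0.52 times Nras in RP, 0.66, 0.78 and 0.57 times in RPT and 0.80, 0.91 and 0.73 times in RPTi. The RPTi libraries were all above the RP libraries, while RPT overlapped with both (log2 ratio -0.81 ± 0.17, -0.58 ± 0.22 and -0.30 ± 0.16, SD, n = 3). This ratio did not pass either (exact permutation p = 0.0714, adjusted 0.107), except without RPT replicate 2 (exact permutation, adjusted p = 0.0429). Araf was 4.52 to 6.02 times Braf in RP, 4.54 to 5.71 times in RPT and 4.56 to 5.72 times in RPTi, nearly the same range in each group (exact permutation p = 0.929). Comparing 2 groups of 3 libraries, this exact test cannot give a two-sided p below 0.1.

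**Figure D3:**
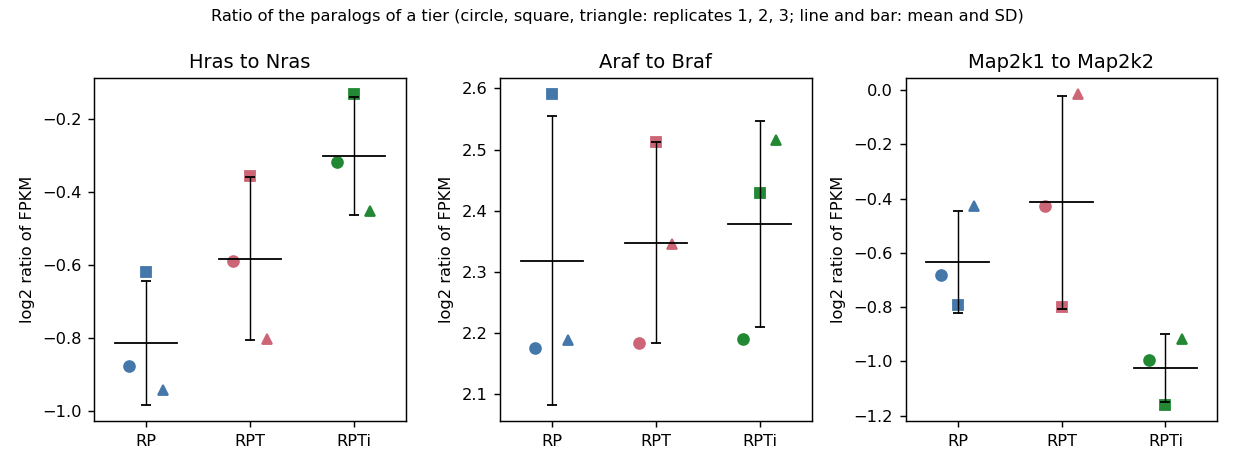
Log2 ratio of FPKM between the genes of a tier (vertical axes, not from 0) by group; symbols are libraries, lines the mean and bars the SD (n = 3). The 3 RPTi values of Map2k1 to Map2k2 lie below all others, and the ratio of Araf to Braf covers a similar range in each group.

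The genes whose pattern was nearest to that of Map2k1, Nras or Araf, the members called over the 3 groups, were sought among 9863 genes with a mean of at least 5 CPM, by the root mean square difference of centred log2 CPM over the 9 libraries. The nearest to Map2k1 were the phosphatase gene Acp1 (difference 0.0250), the RNA-binding protein gene Hnrnpd (0.0286), the ribosome biogenesis gene Utp4 (0.0340), Mcmbp, whose product binds the replication helicase (0.0341), and the co-chaperone gene Dnaja2 (0.0344), where the SD of Map2k1 itself was 0.18. These 5 genes had log2 fold changes of 0.20 to 0.25 in RPT against RP and -0.41 to -0.31 in RPTi against RPT. Nearest to Nras were the transcription factor gene Sp1 (0.0367), the ubiquitin ligase gene Huwe1 (0.0374), Impa1, Sptbn1 and Rab3gap1 (0.0436). Nearest to Araf were the lysosomal enzyme genes Smpd1 (0.0431) and Naglu (0.0521), then Agap3, Sra1 and RGD1310127 (0.0575). These genes were picked for likeness from all of these, so their agreement is a description.

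The genes around the cascade were taken as 8 lists of its regulators, partners and neighbours. Over the 132 tested genes of these lists, 17 rose and 13 fell in RPT against RP (22.7%, with 28.9% over all genes). In RPTi against RPT 19 rose and 38 fell (43.2%, with 41.5% over all genes), and in RPTi against RP 14 rose and 31 fell (34.1%, with 24.2% over all genes).

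Among 19 other RAS-family GTPase genes, 2 rose and 3 fell with thrombin, and 4 rose and 5 fell with the inhibitor (median log2 fold changes 0.08 and -0.07, with -0.00071 and -0.0083 over all genes). Mras, a RAS relative that works with the SHOC2 phosphatase complex, had means of 121 (RP), 92.0 (RPT) and 125 CPM (RPTi), falling with thrombin (-0.40, SE 0.06) and rising with the inhibitor (0.44, SE 0.06). Rras rose with thrombin (0.30, SE 0.09) and Rap1b fell with the inhibitor (-0.47, SE 0.09). Rasl12 rose from 23.5 CPM in RPT to 73.5 CPM in RPTi (1.65, SE 0.09).

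Adaptors and exchange factors, which load RAS with GTP at activated receptors, mostly did not pass. Of 19 tested, 1 rose and 2 fell with thrombin, and 2 rose and 3 fell with the inhibitor (medians 0.06 and 0.02). The adaptor gene Shc1 rose from 227 to 262 CPM with thrombin (0.21, SE 0.06) and fell to 185 CPM with the inhibitor (-0.50, SE 0.06). The docking protein gene Gab1 did the opposite, at 24.1 CPM in RP, 15.6 in RPT and 27.1 in RPTi (-0.62, SE 0.07, then 0.79, SE 0.07). Of 9 genes of RAS GTPase-activating proteins, which switch RAS off, 0 rose and 3 fell with thrombin, with the neurofibromin gene Nf1 at -0.21 (SE 0.07, edgeR adjusted p = 0.0488). With the inhibitor 1 rose and 4 fell (median -0.19), among them Rasal2 (-0.72, SE 0.08), Rasa3 (-0.50, SE 0.07) and Rasa2 (-0.96, SE 0.15). Of 10 genes for the lipid modification and delivery of RAS, the palmitoyltransferase gene Zdhhc9 alone passed with thrombin (-0.29, SE 0.07), and with the inhibitor it rose (0.55, SE 0.07) while the depalmitoylating thioesterase gene Lypla1 fell (-0.42, SE 0.10).

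Of 21 RAF partners and regulators, 4 rose and 1 fell with thrombin (median 0.08), and 4 rose and 8 fell with the inhibitor (median -0.17). The chaperone gene Hsp90ab1, whose product holds RAF kinases in a foldable state, had means of 2008 (RP), 2446 (RPT) and 1664 CPM (RPTi) (0.28, SE 0.04, then -0.56, SE 0.04). The 14-3-3 genes, whose products bind phosphorylated RAF, did not move as one: Ywhag rose with thrombin (0.32, SE 0.05) and fell with the inhibitor (-0.54, SE 0.05), Ywhaz fell with the inhibitor (-0.49, SE 0.07), and Ywhaq rose with it (0.43, SE 0.07). Of 10 MEK and ERK scaffold genes, 2 rose with thrombin, the ERK-binding protein gene Pea15 (0.31, SE 0.07) and the beta-arrestin gene Arrb1 (0.32, SE 0.10). Both fell with the inhibitor, Arrb1 from 21.3 to 6.48 CPM (-1.72, SE 0.11), and 4 of the 10 fell in all, including the scaffold gene Iqgap1 (-0.24, SE 0.06).

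Of 16 genes of ERK and its kinase and transcription factor substrates, 4 rose and 2 fell with thrombin (median 0.08), and 3 rose and 5 fell with the inhibitor (median -0.11). The ETS factor gene Elk3 had means of 72.3 (RP), 107 (RPT) and 51.9 CPM (RPTi) (0.56, SE 0.06, then -1.04, SE 0.06). Mknk2, which encodes a kinase that ERK activates, fell with thrombin (-0.44, SE 0.08) and rose with the inhibitor (0.83, SE 0.08). Kinases of the other MAP kinase modules gave 28 tested rows, of which 4 rose and 1 fell with thrombin, and 4 rose and 8 fell with the inhibitor. The p38-activating kinase gene Map2k6 fell from 2.42 to 0.724 CPM with thrombin (-1.72, SE 0.25) and was at 2.02 CPM in RPTi (1.47, SE 0.25), while Map3k6 rose (0.84, SE 0.11) and then fell (-1.05, SE 0.11).

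Transcripts that ERK is known to induce are given as a description, since this list was chosen with its behaviour in these libraries known, and neither its direction nor its size is independent evidence. Of 33 ERK-responsive genes, 25 rose and 1 fell with thrombin (median log2 fold change 0.76), beside 13.6% and 15.2% of all tested genes. With the inhibitor 1 rose and 27 fell (median -1.81), beside 20.4% and 21.1% of all tested genes. Without sign, the medians were 0.77 and 1.81 for this list, and 0.12 and 0.26 for the 7 cascade genes. Over all genes they were 0.21 and 0.27. In RPTi against RP 3 rose and 22 fell (median -0.97), beside 11.9% and 12.3% of all tested genes. Fosl1, an AP-1 factor gene, was at 18.7 CPM in RP, 62.7 in RPT and 5.24 in RPTi.

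**Figure D4:**
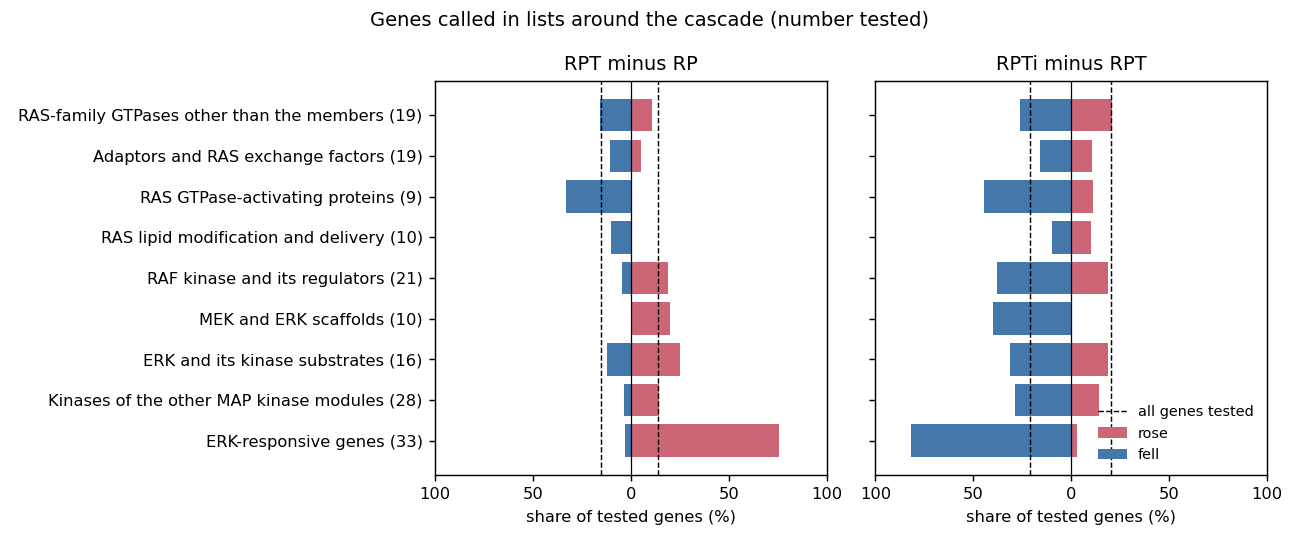
Share of the tested genes of each list (number in brackets) that rose (right) or fell (left) at an adjusted p below 0.05, in percent, for RPT minus RP and RPTi minus RPT; dashed lines give the shares over all genes tested. The bars of the ERK-responsive genes, a list chosen with its behaviour in these libraries known, stand for 25 of 33 rising with thrombin and 27 of 33 falling with the inhibitor.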

How the data were processed

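Poly-A selected RNA of 9 libraries was measured. Per the submitters' processing notes, HISAT2, HTSeq 0.11.2 and DESeq2 1.26.0 and the build Rnor_6.0 were used, with no roles given. No source used here gives the annotation release, strand setting or treatment of reads matching several places, and the kit named in the labels does not mark strand. Reads of overlapping genes (in RefSeq, Lrrc56 with Hras, Syn1 with Araf, Ndufb2 with Braf) and of near-identical copies are therefore uncertain. The deposited table holds raw counts per gene. It also holds FPKM, which the authors computed from count, a whole-number gene length and library total, as checked on every gene with a largest relative difference of 2.23e-13.

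Genes were kept by filterByExpr (minimum count 10, minimum total 15), which removed 0.0259% of counts, and libraries were scaled by TMM. Read depth limits the precision of single genes: Braf had 4580 counts over the 9 libraries and Mapk3 57161. All 9 libraries entered 1 quasi-likelihood model with a coefficient per group (edgeR 4.0.16 in R 4.3.3), and every adjusted p of a single gene is from this test, Benjamini-Hochberg adjusted over 13856 genes, unless another is named. Each SE is the size of the fold change over the root of its F value, and intervals are 95%. Ratios used log2 FPKM. The code was tested on simulated data. Groups and replicate numbers came from the titles. The text names the 7 members, up to 3 called genes per direction of each list by smallest p and the 5 nearest genes of each member called over the 3 groups, though not all that the rule names are printed. Of 175 listed symbols 172 had a row, and Map2k3 had 2. Some genes of the same tiers were counted in the lists and are not reported singly here. Members and lists were chosen with earlier results of these data known. Alternatives were DESeq2 (1.42.0), other scalings and filters, 2 groups alone, a replicate block, limma (3.58.1) on log2(FPKM + 1) and log2(FPKM + 0.1), and leaving out each library.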

Additional observations from a re-analysis of the deposited data

How the results depend on the processing

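The counts of called genes stayed within 1.5 times their value under all 18 alternatives in the 3 comparisons, but with library totals alone 38.4% of called genes rose in RPTi against RPT (49.2% with TMM) and 36.6% in RPTi against RP (49.1% with TMM). On log2(FPKM + 1) these shares were 38.8% and 38.8%, and on log2(FPKM + 0.1) they were 38.8% and 38.2%. The number of members called in RPT against RP was 1 in place of 0 with DESeq2 size factors, library totals alone, at least 1 CPM in 3 libraries, DESeq2, log2(FPKM + 1) and log2(FPKM + 0.1), and between 0 and 1 when single libraries were left out. In RPTi against RP it was 2 in place of 1 with only the 2 groups in the fit, and between 0 and 2 with libraries left out, and in the test over 3 groups it was between 1 and 4 in place of 3. In RPTi against RPT it ranged from 3 to 4 with libraries left out.

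Same-numbered libraries deviated together only in part over all genes (correlations of -0.11 to 0.12, 2 of 9 above 0.1, and 3 of 9 libraries closest to their own number). The correlations were 0.022 to 0.124 for replicates 2 and 3, and -0.114 to -0.034 for replicate 1. Replicate 2 against replicate 3 of another group gave -0.161 to -0.064. The replicate numbers are not taken to pair the samples in the main fit. The shared direction in replicates 2 and 3 was not tested. Hras, Map2k1, Map2k2 and Mapk3 each had the same highest and lowest replicate number in 3 of 3 groups. With a replicate block 5074, 6698 and 4689 genes were called in RPT against RP, RPTi against RPT and RPTi against RP. Without the block these counts were 3999, 5745 and 3352. The block called 2 members in RPT against RP (Hras, adjusted p = 0.00934, and Map2k1, 0.00899), 5 in RPTi against RPT, adding Map2k2 (0.0109), 5 in RPTi against RP, adding Hras (0.00607), Araf (0.0198), Map2k2 (0.0173) and Mapk3 (0.0426) to Nras, and 6 in the test over 3 groups, adding Hras (0.00561), Braf (0.0387) and Map2k2 (0.0122). Map2k2 was at -0.0036 in RPT against RP with the block.

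Direction turned only for values that passed neither way. Nras in RPT against RP (-0.0078) was at 0.0098 with library totals alone, 0.0053 with 2 groups, 0.0097 on log2(FPKM + 1) and 0.0099 on log2(FPKM + 0.1), and ranged from -0.064 to 0.035 with libraries left out. Hras in RPTi against RPT (0.03) was at -0.046 with library totals alone, -0.047 on log2(FPKM + 1) and -0.048 on log2(FPKM + 0.1), and ranged from -0.052 to 0.12 with libraries left out. With libraries left out, Map2k2 in RPT against RP ranged from -0.14 to 0.11, and Mapk3 in RPTi against RPT from -0.095 to 0.022. The RPTi minus RPT difference of the log2 ratio ranged from -0.81 to -0.41 for Map2k1 to Map2k2, from -0.051 to 0.13 for Araf to Braf and from 0.17 to 0.40 for Hras to Nras. The causes were not tested.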
